A study of Mus musculus with 12 samples.

Results

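The unfolded protein response of the ileum was followed through 10 genes, Hspa5, Hsp90b1, Sdf2l1, Dnajb9, Pdia4, Pdia6, Creld2, Manf, Xbp1 and Herpud1. They were picked by symbol as a set of chaperones, disulfide isomerases and regulators of the endoplasmic reticulum (ER), with earlier results of these data known. Each was found through its Ensembl identifier among the 54838 genes of the count table. Bulk RNA-seq was made from the ileum of C57BL/6J mice, 3 per group, to ask how a week of zinc changes the response to the synthetic glucocorticoid dexamethasone (Dex). The water + PBS mice had normal drinking water for 7 days and an injection of PBS alone. Water + Dex mice had normal water and 200 μg of Dex. ZnSO4 + PBS mice drank 25 mM ZnSO4 for 7 days and were given PBS, and ZnSO4 + Dex mice drank the same ZnSO4 and were given 200 μg of Dex. Every group carried the injection, and the ileum was taken 2 h after it. The methods of the study describe its mice as female and 8 to 14 weeks old, and all groups were of the same wild-type strain.

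Proteins that enter the ER are folded by chaperones and cross-linked by disulfide isomerases before they move on to the Golgi. When unfolded proteins build up, the sensors IRE1, ATF6 and PERK switch on transcription of these helpers, of the genes that remove misfolded proteins and of the factor XBP1. Cells of the gut that secrete much protein, such as Paneth cells, goblet cells and the plasma cells of the lamina propria, are known for a large ER and for their dependence on this response.

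For several of the 10 genes, an exact match to a known ER stress response element (ERSE) was found in front of the start site. The promoters that hold one are printed here. RefSeq promoters (GRCm38.p6, 250 bases before to 50 after the start) were at hand for 9 of the 10 genes, and Manf was not searched. Only exact letters in this window were searched, so a gene without a match may still carry such an element. The ERSE, CCAAT and CCACG with 9 free bases between them on either strand, was found in Hspa5, Hsp90b1, Pdia6 and Creld2, and in 0.119% of 32851 mouse promoters of the same length. A related form, ERSE-II (ATTGG and CCACG with 1 free base between them, on either strand), was found in Herpud1 and in 0.037% of promoters. Capitals mark the ERSE or ERSE-II in the sequences below, which run 5′ to 3′ along the gene. They lie at chr2:34771840-34772139, plus strand; chr10:86705395-86705694, minus strand; chr12:17266339-17266638, plus strand; chr15:88819396-88819695, plus strand; and chr8:94386179-94386478, plus strand.
Hspa5: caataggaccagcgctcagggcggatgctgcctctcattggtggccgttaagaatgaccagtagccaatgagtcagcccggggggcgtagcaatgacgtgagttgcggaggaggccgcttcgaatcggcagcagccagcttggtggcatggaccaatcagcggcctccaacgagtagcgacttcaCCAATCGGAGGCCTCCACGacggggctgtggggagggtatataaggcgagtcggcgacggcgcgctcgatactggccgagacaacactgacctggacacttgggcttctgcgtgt
Hsp90b1: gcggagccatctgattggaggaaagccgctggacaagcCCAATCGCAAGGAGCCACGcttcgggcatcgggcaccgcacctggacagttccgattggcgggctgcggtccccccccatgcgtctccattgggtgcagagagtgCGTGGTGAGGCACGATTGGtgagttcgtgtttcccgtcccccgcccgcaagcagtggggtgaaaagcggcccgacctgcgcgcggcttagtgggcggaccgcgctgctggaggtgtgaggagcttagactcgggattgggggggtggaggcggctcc
Pdia6: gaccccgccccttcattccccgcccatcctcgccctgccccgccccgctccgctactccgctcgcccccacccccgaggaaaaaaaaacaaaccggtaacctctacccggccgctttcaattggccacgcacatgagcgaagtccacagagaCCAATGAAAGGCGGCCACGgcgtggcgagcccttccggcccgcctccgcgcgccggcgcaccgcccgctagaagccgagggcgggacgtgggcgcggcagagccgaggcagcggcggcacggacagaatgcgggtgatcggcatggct
Creld2: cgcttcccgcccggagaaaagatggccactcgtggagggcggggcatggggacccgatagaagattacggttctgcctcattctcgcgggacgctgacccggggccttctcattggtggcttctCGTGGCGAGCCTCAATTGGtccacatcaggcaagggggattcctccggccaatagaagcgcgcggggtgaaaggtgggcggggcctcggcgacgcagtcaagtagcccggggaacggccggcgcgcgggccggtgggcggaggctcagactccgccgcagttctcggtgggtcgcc
Herpud1: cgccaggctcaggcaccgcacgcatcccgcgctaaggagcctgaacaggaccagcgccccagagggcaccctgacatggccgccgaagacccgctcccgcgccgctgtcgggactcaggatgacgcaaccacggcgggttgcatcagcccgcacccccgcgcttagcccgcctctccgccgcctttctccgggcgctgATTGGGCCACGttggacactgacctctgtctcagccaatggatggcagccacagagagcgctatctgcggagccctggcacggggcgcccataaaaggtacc

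The ERSE of Hspa5 began 65 bases upstream of the start, that of Pdia6 98 bases upstream and that of Creld2, on the reverse strand, 126 bases upstream. Hsp90b1 held 2 of them, one beginning 212 bases upstream and a reverse one 107 bases upstream. The ERSE-II of Herpud1 began 52 bases upstream, and Herpud1 was also the 1 gene of the set with an amino acid response element (TGATGNAA on either strand, in 3.97% of promoters), 112 bases upstream on the reverse strand. The elements known as UPRE (TGACGTGG, in 0.676% of promoters) and a full palindromic glucocorticoid response element (AGAACA and TGTTCT with 3 free bases between them, in 0.009%) were not among the letters of these 9 windows. A match of letters is not evidence that a factor binds there.

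The libraries held between 10760132 and 11827487 counted reads, and all 10 genes passed the filter on low counts, which left 15938 genes. Levels are given as normalised counts, the counts scaled to 1 common library of 11377723 reads, with the value of replicates 1, 2 and 3 in that order. LFC is the log2 fold change in edgeR's quasi-likelihood model, and a gene was called at a Benjamini-Hochberg adjusted p under 0.05. The treatments were visible in genes known to respond to them: the metallothioneins Mt1 and Mt2 rose with ZnSO4 and the zinc importer Slc39a4 fell in both comparisons with water, and 7 of 7 genes known to be induced by Dex rose in both comparisons with PBS. Markers of ileal enterocytes were high in every library (summed normalised counts of 66923 to 122494 over 5 genes). Those of pancreatic acinar cells were near the floor (59.9 to 90.7 over 10 genes, of which 4 were at 0 in all libraries and 1 passed the filter). In a whole tissue, fewer cells of a type and less RNA per cell cannot be told apart.

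Per kilobase of exon, Hspa5 was the most abundant of the 10 genes, with a mean of 2340 normalised counts per kb over the 4 groups, ahead of Hsp90b1 at 1975. Herpud1 came next at 1814, but this mean joined 676 in water + PBS mice and 3112 in ZnSO4 + Dex mice. Xbp1 stood at 1047, Pdia6 at 861 and Pdia4 at 646. The lowest levels were those of Sdf2l1 (463), Creld2 (448), Manf (402) and Dnajb9 (353). In water + PBS mice Herpud1 was thus sixth of the set, below Pdia4 at 798, and after Dex it was the most abundant, above Hspa5 at 2794 in water mice and 1844 in ZnSO4 mice.

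Zinc in the drinking water went with lower mRNA of the ER chaperones. In PBS mice 6 of the 10 genes fell with ZnSO4 and none rose, beside 2.54% of all tested genes that fell and 2.11% that rose. In Dex mice 4 fell and none rose, beside 2.54% and 1.83%. These comparisons share no libraries, but they share the spread estimated in 1 fit. Over both, as the mean of the PBS and Dex effects, 8 fell and none rose, beside 6.52% and 6.24% of all tested genes. Only Dnajb9 and Herpud1 did not pass that test. The median LFC of the 10 genes was -0.59 in PBS mice, -0.49 in Dex mice and -0.54 in the mean, against medians of -0.013, 0.0074 and -0.0046 over all tested genes. Most changes were below the study's cut-off of 0.8: past it were only Creld2 in PBS mice and in the mean, and Sdf2l1 in Dex mice, beside 0.954%, 1.63% and 1.2% of all tested genes.

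**Figure D1:**
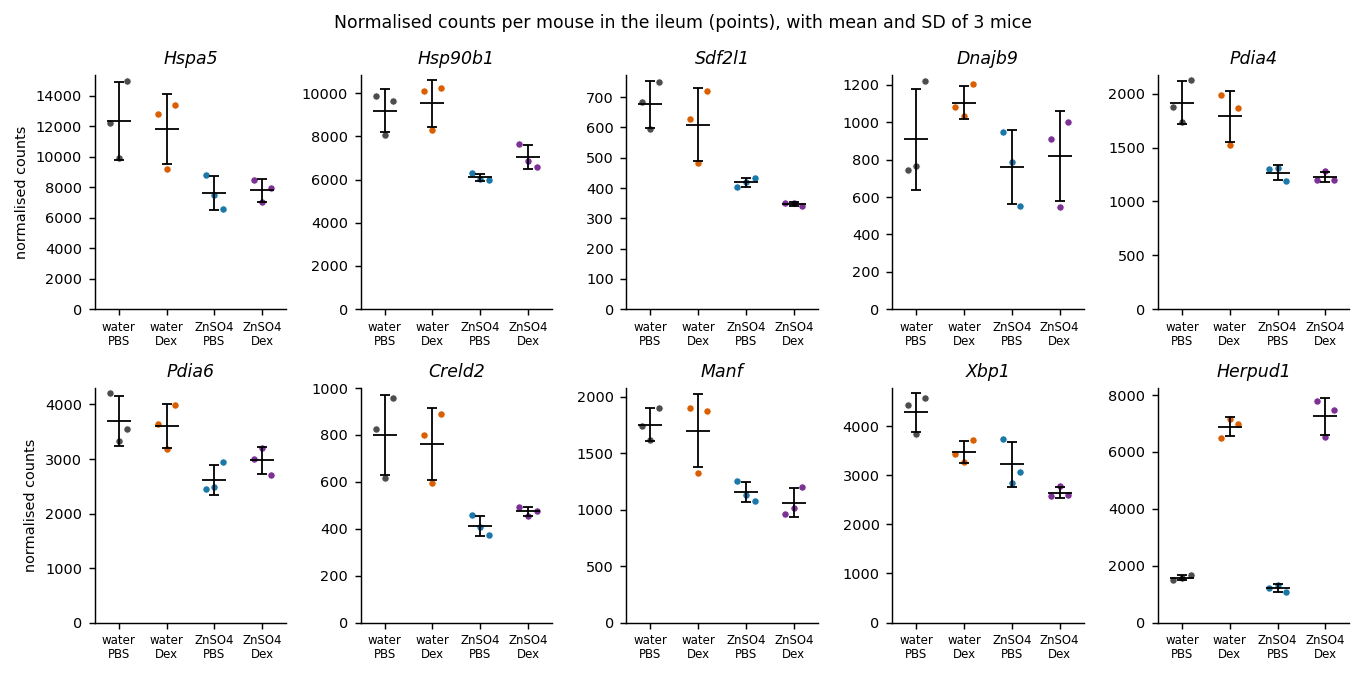
Normalised counts of the 10 genes, with a panel per gene and the axis starting at 0, in the groups water + PBS, water + Dex, ZnSO4 + PBS and ZnSO4 + Dex. Points are single mice, and bars are the mean and SD of 3 mice. For Hspa5, Hsp90b1, Sdf2l1, Pdia4, Creld2 and Manf all 6 ZnSO4 mice lie below all 6 water mice, and Herpud1 is split by Dex instead.

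Hspa5 (ENSMUSG00000026864, chr2:34771970-34777547 of GRCm38) encodes BiP, the Hsp70 of the ER that binds nascent chains and holds the stress sensors inactive. Its normalised counts were 12207, 9897 and 14978 in the water + PBS group and 12831, 9198 and 13424 in the water + Dex group. They were 8791, 7471 and 6565 in ZnSO4 + PBS mice and 8457, 7011 and 7929.5 in ZnSO4 + Dex mice. The lowest water mouse stood above the highest ZnSO4 mouse, but the spread among water mice was wide. The LFC was -0.70 (SE 0.18, adjusted p = 0.052) in PBS mice and -0.60 (SE 0.18, adjusted p = 0.095) in Dex mice, neither past the threshold alone, and the mean effect passed at -0.65 (SE 0.13, adjusted p = 0.0073).

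Hsp90b1 (ENSMUSG00000020048, chr10:86690209-86705509 of GRCm38) encodes GRP94, the Hsp90 of the ER, which folds integrins and Toll-like receptors. It had 9877, 8072 and 9627 normalised counts in the water + PBS group, and 10094, 8281 and 10228 in the water + Dex group. In ZnSO4 + PBS mice the values were 6292, 6047 and 5977, and in ZnSO4 + Dex mice 7654, 6849 and 6584. No ZnSO4 mouse reached the lowest water mouse. Hsp90b1 fell in PBS mice (LFC -0.59, SE 0.11, adjusted p = 0.015) and stood at -0.44 (SE 0.11, adjusted p = 0.051) in Dex mice. Of its exon sequence 10.3% overlaps 1810014B01Rik on the other strand and 12.3% of its 31-base stretches occur in other annotated genes, so that some of its reads may have been left out or counted elsewhere.

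Sdf2l1 (ENSMUSG00000022769, chr16:17130138-17132383 of GRCm38) is a partner of BiP and its cochaperone Dnajb11, and it varied little among ZnSO4 mice. Its normalised counts were 683, 596 and 751 in the water + PBS group and 627, 482 and 721 in the water + Dex group. They came to 404, 420.1 and 433 in ZnSO4 + PBS mice and 351, 349.7 and 339.6 in ZnSO4 + Dex mice. Sdf2l1 fell in both comparisons, with an LFC of -0.69 (SE 0.13, adjusted p = 0.013) in PBS mice and -0.81 (SE 0.13, adjusted p = 0.0055) in Dex mice. The ZnSO4 + Dex mice were all below the ZnSO4 + PBS mice, with a Dex LFC of -0.27 (SE 0.13) that was not called (adjusted p = 0.21).

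Dnajb9 (ENSMUSG00000014905, chr12:44205559-44210326 of GRCm38), or ERdj4, is a cochaperone that recruits BiP to IRE1, and its SE was the largest of the set. Water + PBS mice had 742, 766 and 1222 normalised counts and water + Dex mice 1080.3, 1031 and 1206. ZnSO4 + PBS mice had 947, 786 and 555 and ZnSO4 + Dex mice 912, 549 and 1003. The groups overlapped in PBS mice and not in Dex mice. The LFC was -0.26 (SE 0.25, adjusted p = 0.63) and -0.43 (SE 0.25, adjusted p = 0.40), and a difference of this size was within the replicate error. Without water + PBS replicate 3 the LFC in PBS mice was 0.017. A pseudogene, Gm6568, holds 10.8% of the 31-base stretches of Dnajb9.

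The disulfide isomerases Pdia4 (ENSMUSG00000025823, chr6:47796141-47813430 of GRCm38) and Pdia6 (ENSMUSG00000020571, chr12:17266545-17284770 of GRCm38), known as ERp72 and P5, both work on the clients of BiP. Pdia4 had 1875, 1739.8 and 2130.3 normalised counts in the water + PBS group and 1983, 1525 and 1864 in the water + Dex group. With ZnSO4 it had 1301, 1309.6 and 1189 in PBS mice and 1204, 1279 and 1195 in Dex mice. All 6 ZnSO4 mice were below the water mice, and Pdia4 fell by close to the same LFC in PBS mice (-0.60, SE 0.10, adjusted p = 0.0093) and in Dex mice (-0.55, SE 0.10, adjusted p = 0.013). Pdia6 had 4212, 3323 and 3552 in the water + PBS group, 3633, 3181 and 3993 in the water + Dex group, 2441, 2478 and 2938 in ZnSO4 + PBS mice, and 3009, 3206 and 2715 in ZnSO4 + Dex mice. Here the Dex groups overlapped by 1 mouse on each side. Pdia6 fell in PBS mice (LFC -0.50, SE 0.12, adjusted p = 0.040) and not in Dex mice (-0.28, SE 0.12, adjusted p = 0.24), and the difference between these effects was 0.22 (SE 0.17, adjusted p = 0.96).

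Creld2 (ENSMUSG00000023272, chr15:88819646-88826683 of GRCm38), an ER-resident protein with isomerase activity towards its clients, had the largest fall of the set in PBS mice. Its normalised counts were 825, 617 and 957 in the water + PBS group and 798, 595 and 891 in the water + Dex group. ZnSO4 + PBS mice had 457, 406 and 372 and ZnSO4 + Dex mice 493, 455 and 476. The highest ZnSO4 mouse was below the lowest water mouse. Creld2 fell with an LFC of -0.96 (SE 0.17, adjusted p = 0.0099) in PBS mice and -0.68 (SE 0.17, adjusted p = 0.043) in Dex mice.

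Manf (ENSMUSG00000032575, chr9:106838312-106891979 of GRCm38) encodes a small protein that is held in the ER by BiP and secreted under stress. Normalised counts of Manf were 1739, 1617 and 1901 in water + PBS mice, and the water + Dex mice had 1899, 1326 and 1874. The values with ZnSO4 were 1251, 1127 and 1078 in PBS mice and 962, 1015 and 1204 in Dex mice. Again no ZnSO4 mouse reached a water mouse, and Manf fell in PBS mice (LFC -0.61, SE 0.14, adjusted p = 0.030) and in Dex mice (-0.68, SE 0.14, adjusted p = 0.017). Of the exon sequence of Manf 8.85% overlaps genes on the other strand, and the strand setting of the counting is not given in the sources used here.

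Xbp1 (ENSMUSG00000020484, chr11:5520659-5525893 of GRCm38) encodes the transcription factor whose mRNA is spliced by IRE1; counts per gene do not separate the spliced from the unspliced form. Its normalised counts were 4425, 3829.8 and 4575 in the water + PBS group and 3435, 3268 and 3706 in the water + Dex group. They were 3740.2, 2849.9 and 3065 in ZnSO4 + PBS mice and 2567, 2778 and 2587 in ZnSO4 + Dex mice. Within each injection the ZnSO4 mice were below the water mice, and within each drinking water the Dex mice were below the PBS mice. The ZnSO4 LFC was -0.41 (SE 0.11, adjusted p = 0.054) in PBS mice and -0.39 (SE 0.11, adjusted p = 0.068) in Dex mice, and only the mean effect passed the test (-0.40, SE 0.08, adjusted p = 0.0058).

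Herpud1 (ENSMUSG00000031770, chr8:94386438-94395377 of GRCm38), a membrane protein of the complex that draws misfolded proteins out of the ER for degradation, followed Dex. It had 1495, 1581 and 1658 normalised counts in water + PBS mice and 1212, 1337 and 1077 in ZnSO4 + PBS mice. After Dex it had 6507, 7158 and 6988 in water mice and 7787, 6525 and 7466 in ZnSO4 mice. All 6 Dex mice were thus far above all 6 PBS mice. In PBS mice the ZnSO4 groups did not overlap, with an LFC of -0.38 (SE 0.10) at an adjusted p of 0.0501, just outside the threshold, and in Dex mice the LFC was 0.08 (SE 0.10, adjusted p = 0.72).

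Counted by single mice, 9 genes were lower in all 3 ZnSO4 + PBS mice than in all 3 water + PBS mice, beside 12.9% of all tested genes, and the exception was Dnajb9. In Dex mice 8 genes did not overlap in that direction, beside 13.2%, and the exceptions were Pdia6 and Herpud1. With the injections joined, 6 genes were lower in all 6 ZnSO4 mice than in all 6 water mice, beside 2.62% of all tested genes. They were Hspa5, Hsp90b1, Sdf2l1, Pdia4, Creld2 and Manf.

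The counts of called genes within 1 injection rested on single libraries. The 6 calls in PBS mice became 2 without water + PBS replicate 1 or without ZnSO4 + PBS replicate 3, and 3 without ZnSO4 + PBS replicate 1. In the same fits the falls over all tested genes went from 405 to 140, 145 and 147. The 4 calls in Dex mice became 1 without water + Dex replicate 1, water + Dex replicate 3 or ZnSO4 + Dex replicate 1, and 2 without ZnSO4 + Dex replicate 2, where the falls over all tested genes went from 405 to 215, 193, 252 and 284. Each of the 8 calls of the mean effect was kept whichever of the 12 libraries was left out.

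**Figure D2:**
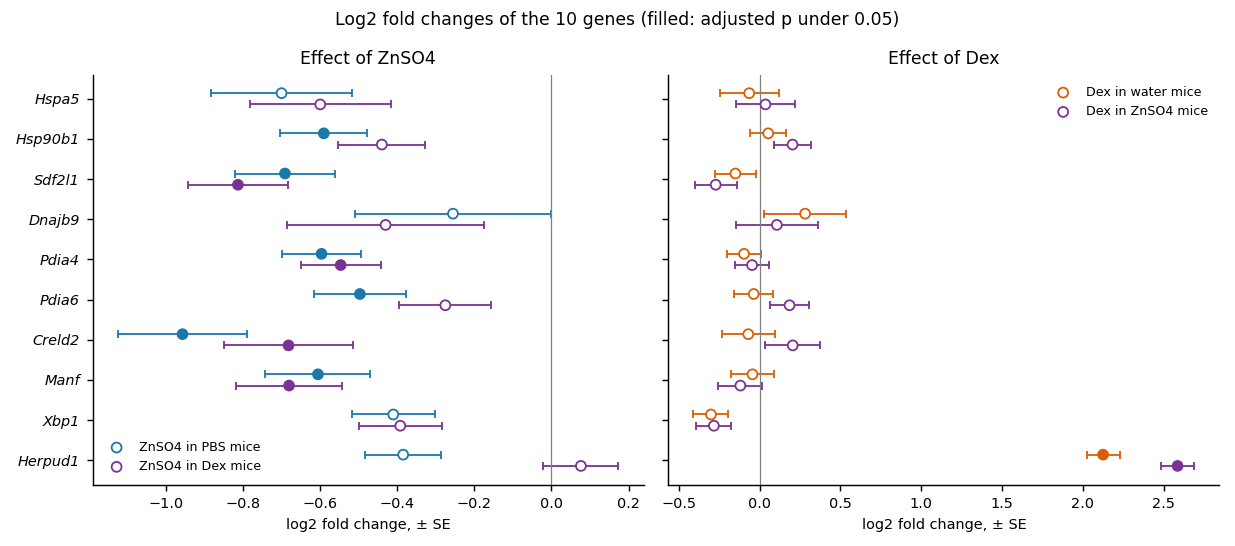
Log2 fold changes of the 10 genes with their SE as bars, for ZnSO4 against water (left, in PBS and in Dex mice) and for Dex against PBS (right, in water and in ZnSO4 mice). Filled points have an adjusted p under 0.05. All but 1 ZnSO4 value lie below 0, the exception being Herpud1 in Dex mice at 0.08, and Herpud1 stands alone in the Dex panel at 2.12 and 2.59.

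Of the 10 genes, 1 rose strongly with Dex, and no chaperone was called. Herpud1 rose with an LFC of 2.12 (SE 0.10, adjusted p = 5.2e-07) in water mice, or 4.36-fold, and of 2.59 (SE 0.10, adjusted p = 1.3e-07) in ZnSO4 mice, or 6.00-fold. It was the 1 gene of the set called in each comparison, beside 5.41% of all tested genes that rose in water mice and 6.65% in ZnSO4 mice, while 4.51% and 7.08% fell. It also passed the cut-off of 0.8, as 2.79% and 3.41% did. These Dex comparisons share their 4 groups with the ZnSO4 comparisons, so the ZnSO4 and the Dex values are not independent. The other 9 genes had LFCs from -0.30 to 0.28 in water mice, with a median of -0.065, and from -0.28 to 0.20 in ZnSO4 mice, with a median of 0.036. Their SEs were between 0.10 and 0.25, so changes of this size were not detectable gene by gene. In the mean of both Dex effects Herpud1 stood at 2.36 (SE 0.07, adjusted p = 4.9e-09), beside 10.4% of all tested genes that rose and 3.67% that also passed 0.8. Xbp1 was called there as well, with an LFC of -0.29 (SE 0.08, adjusted p = 0.017). A fall in 1 of 10 genes is near the 11.2% of all tested genes that fell. The call of Xbp1 was lost with plasma cell markers as a covariate (LFC -0.31, adjusted p = 0.068). Beside Xbp1 stood Sdf2l1 at -0.21 (SE 0.09, adjusted p = 0.13), which was called without water + Dex replicate 3, whereas Hsp90b1 stood at 0.13 (SE 0.08, adjusted p = 0.29).

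By single mice, Xbp1 was lower in all 3 water + Dex mice than in all 3 water + PBS mice (14.5% of all tested genes were), and Herpud1 higher (15.2%). In ZnSO4 mice Sdf2l1 and Xbp1 were lower in the Dex group (14.9%) and Hsp90b1 and Herpud1 higher (14.2%). Herpud1 alone was higher in all 6 Dex mice than in all 6 PBS mice, beside 4.85% of all tested genes.

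Whether ZnSO4 changed the Dex effect was asked through the interaction. The edgeR test called none of the 10 genes, and 0% of the 15938 tested, in either direction. Herpud1 had the largest value of the set, an LFC of 0.46 (SE 0.14), with an unadjusted p of 0.0065 and an adjusted p of 0.95. It was the 1 member with an unadjusted p under 0.05, beside 794 of the 15938 tested genes. DESeq2 gave 0.45 for it (adjusted p = 0.71) and also called no member. Herpud1 was thus 4.36-fold higher after Dex in water mice and 6.00-fold higher in ZnSO4 mice, and that difference did not pass the test over all genes. The other 9 interaction LFCs ranged from -0.17 to 0.28.

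**Figure D3:**
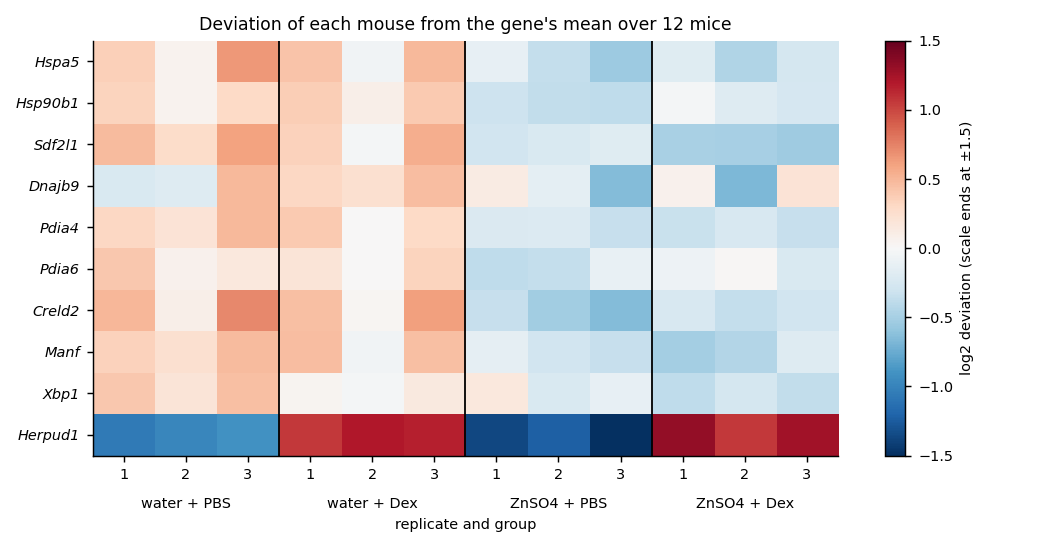
Log2 deviation of each mouse from the gene's mean over 12 mice, with genes in rows and mice in columns by group and replicate; red is above and blue below the mean, and the colour scale ends at 1.5 in either direction. Water mice are red and ZnSO4 mice blue for most genes, replicate 2 is palest in both water groups, and the Herpud1 row is split between PBS and Dex.

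Within 3 of the 4 groups, many of the genes shared an order from mouse to mouse. Leaving out Herpud1, replicate 2 was lowest for 8 of 9 genes in water + PBS mice and for 9 of 9 in water + Dex mice, and replicate 3 was highest for 7 of 9 in both. The labels do not say whether mice of the same number in different groups were handled together. In ZnSO4 + PBS mice the order was another, with replicate 1 highest and replicate 3 lowest for 6 of 9 genes each. ZnSO4 + Dex mice had no common order: replicates 1, 2 and 3 were highest for 4, 3 and 2 of the 9 genes and lowest for 2, 3 and 4. After the group means were taken off, the 28 pairs among the 8 genes without Herpud1 and Dnajb9 had correlations from 0.16 to 0.97 with a median of 0.70 over the 12 libraries. Pairs with Dnajb9 had a median of 0.33 and those with Herpud1 a median of -0.019. These libraries share their depth and cell makeup, so the correlations are a description.

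Genes outside the set were ranked by how closely they followed it over the 12 libraries. The 10 closest to the mean standardised level of the set were Hyou1 (r = 0.98), Dnajb11 (0.98), Sec23b (0.97), Alg12 (0.97), Lman2 (0.96), Canx (0.96), Serp1 (0.96), Dnajc3 (0.96), Uso1 (0.95) and Spcs2 (0.95). Several of them are chaperones (Hyou1, Canx), BiP cochaperones (Dnajb11, Dnajc3) or parts of ER to Golgi transport (Sec23b, Lman2, Uso1), and r is a description over libraries in which ZnSO4 and water mice differ. Hyou1, the large Hsp110-type chaperone that serves BiP, went from 2406 ± 361 normalised counts (SD, n = 3) in water + PBS mice to 1380.3 ± 119.9 in ZnSO4 + PBS mice, and from 2518 ± 559 in water + Dex mice to 1666 ± 119 in ZnSO4 + Dex mice. Dnajb11, the BiP cochaperone ERdj3, went from 2026 ± 192 to 1425 ± 118 in PBS mice and from 2018 ± 203 to 1436 ± 36.2 in Dex mice.

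Other parts of the secretory pathway were read from lists of their own, also chosen with earlier results of these data known. The measure was the mean ZnSO4 effect, in which 6.52% of all tested genes fell and 6.24% rose. Among 20 other ER chaperones and cochaperones 8 fell and 1 rose, with a median LFC of -0.13. Hyou1 (-0.70, adjusted p = 0.0020), Dnajb11 (-0.50, adjusted p = 7.8e-04) and the lectin chaperone Calr (-0.47, adjusted p = 0.0032) fell most, and Cnpy3, a chaperone for Toll-like receptors, rose (0.36, adjusted p = 0.0084). Of 16 tested isomerases and oxidases 6 fell and none rose, with a median of -0.11. They were led by the oxidase Ero1a (-0.48, adjusted p = 3.5e-04), Txndc11 (-0.47, adjusted p = 2.7e-04) and Pdia3, which folds glycoproteins (-0.37, adjusted p = 0.0049). In the list of 24 ER-associated degradation genes 6 fell, with a median of -0.17. Derl3, which the ER of plasma and other secretory cells is known to express, fell by 0.80 (adjusted p = 0.0049), followed by the mannosidase-like Edem1 (-0.33) and Selenos (-0.31).

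Genes for protein entry into the ER and for exit from it were read in the same way, beside the same 6.52% and 6.24%. Of 22 genes for the translocon and signal peptide processing 14 fell and none rose, with a median of -0.21 against -0.0046 over all tested genes. Sec61a1, the pore of the translocon, had the largest fall (-0.56, adjusted p = 2.8e-04), before Sec61g (-0.37) and the signal peptidase subunit Spcs2 (-0.36). Sec61a1 was also called in PBS mice (-0.58) and in Dex mice (-0.53). Of 19 genes for the ER to Golgi coat and cargo receptors 9 fell and none rose, also with a median of -0.21, led by the COPII coat gene Sec23b (-0.41), the cargo receptor subunit Mcfd2 (-0.36) and Sec24d (-0.32). None of these 19 was called in PBS mice or in Dex mice alone.

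**Figure D4:**
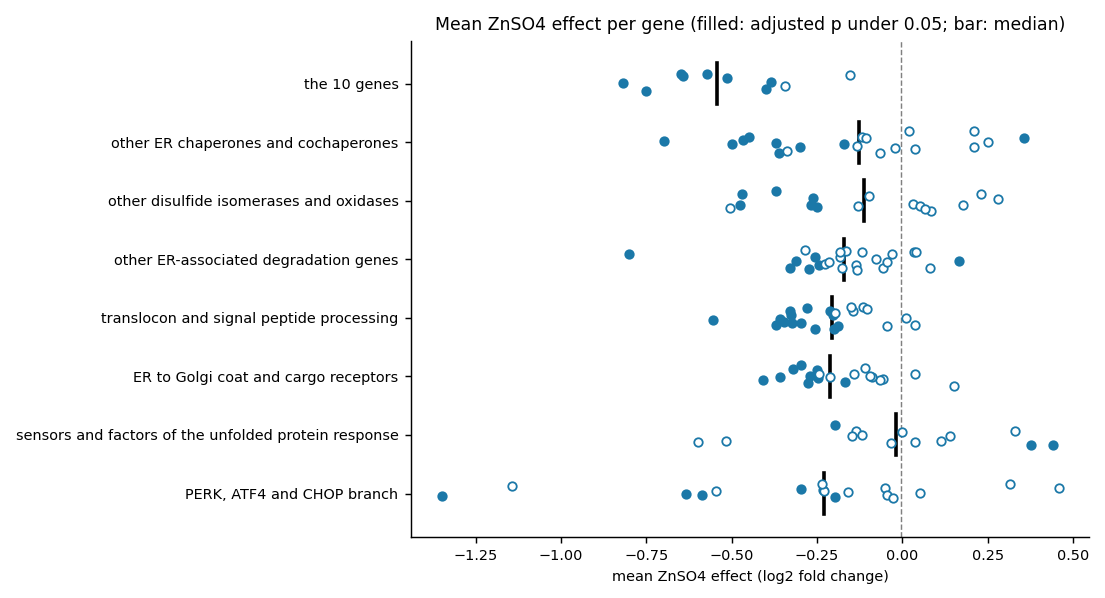
Mean ZnSO4 effect (log2 fold change) of each tested gene in the set of 10 and in 7 other lists of the secretory pathway; filled points have an adjusted p under 0.05 and the black bar is the list's median. The set of 10 has the lowest median, -0.54, and the list of sensors has its median at -0.02.

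Among the mRNAs of 14 sensors and factors of the response, 2 rose, 1 fell and the median was -0.02. The single fall is near the share of 6.52% over all tested genes. Ern1, which encodes IRE1, had 654 ± 88.2 normalised counts in water + PBS mice and 635 ± 17.5 in ZnSO4 + PBS mice (SD, n = 3), and a mean LFC of -0.0012 (adjusted p = 0.99). Its intestinal paralog Ern2 stood at 0.33 (adjusted p = 0.073), Atf6 at -0.12 (adjusted p = 0.13) and Eif2ak3, which encodes PERK, at -0.14 (adjusted p = 0.34). The genes that rose, Creb3l1 (0.44, adjusted p = 0.032) and Creb3l4 (0.38, adjusted p = 0.017), encode ER-bound factors of secretory cells, and the gene that fell was Atf6b (-0.20, adjusted p = 0.034). With Dex, Eif2ak3 rose in the mean of both effects (0.34, adjusted p = 0.018) and was the 1 gene of 14 in this list to do so, beside 10.4% of all tested genes.

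In the PERK, ATF4 and CHOP branch 5 of 17 genes fell with ZnSO4 and none rose, with a median of -0.23, beside falls in 6.52% of all tested genes. The fall was largest for Chac1, which degrades glutathione (-1.35, adjusted p = 0.0091), then for the amino acid synthesis genes Psat1 (-0.64, adjusted p = 0.023) and Asns (-0.59, adjusted p = 0.012). Chac1 was low throughout, at 49.1 ± 18.5 normalised counts in the water + PBS group, 14.2 ± 1.33 after water + Dex, 14.9 ± 6.60 in ZnSO4 + PBS mice and 7.10 ± 1.76 in ZnSO4 + Dex mice (SD, n = 3). Atf4 itself stood at -0.05 (adjusted p = 0.64) and Ddit3, which encodes CHOP, at 0.05 (adjusted p = 0.82).

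In the mean of both Dex effects 5 of the 17 genes of this branch fell and 1 rose, beside 11.2% and 10.4% of all tested genes. The median was -0.21 against -0.0014 over all tested genes. Chac1 fell (-1.42, adjusted p = 0.0033), as did the pseudokinase gene Trib3 (-0.69, adjusted p = 0.047) and Ddit3 (-0.44, adjusted p = 0.029), whereas the stress factor Atf3 rose (0.91, adjusted p = 0.0034). Atf4 stood at -0.18 (adjusted p = 0.065). In the remaining lists the sulfhydryl oxidase Qsox1 rose in water mice (1.24, adjusted p = 1.1e-05) and in ZnSO4 mice (0.92, adjusted p = 7.2e-05), and the KDEL receptor gene Kdelr3, which returns chaperones to the ER, rose in the mean effect (0.61, adjusted p = 0.0028). In the other ER chaperones 1 of 20 rose and in the degradation genes 2 of 24, counts that are near or below the 10.4% of all tested genes.

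The mean level of 7 plasma cell markers was lower in ZnSO4 than in water mice, as that of the chaperones was. Most of the single markers were not called. The mean log2 CPM (counts scaled to a fixed library size, on a log2 scale) of 7 plasma cell markers was 6.78 to 7.37 in the 6 water mice and 6.01 to 6.76 in the 6 ZnSO4 mice, which do not overlap. Summed over the 7 markers, normalised counts were 97434 to 135769 in water mice and 79844 to 116173 in ZnSO4 mice, which do overlap, and no marker was at 0 in all libraries. Of the 7, only Mzb1, a chaperone cofactor of plasma cells (-1.02, adjusted p = 0.0052), and their transcription factor Prdm1 (-0.86, adjusted p = 0.011) fell in the mean ZnSO4 effect. None rose, and over all tested genes 6.52% fell and 6.24% rose. With the plasma cell score as a covariate, no gene of the set was called in PBS or in Dex mice, and 1, Sdf2l1, was called in the mean effect. Over all tested genes the falls in these fits went from 405 to 55 in PBS mice, from 405 to 44 in Dex mice and from 1039 to 93 in the mean effect. The LFC of the mean effect was larger in size with the covariate for 6 of the 10 genes, such as Pdia6 (-0.66 with it and -0.39 without), and smaller for Manf (-0.61 and -0.64), Pdia4 (-0.55 and -0.57), Dnajb9 (-0.19 and -0.34) and Herpud1 (-0.055 and -0.15). The median SE of the set without Herpud1 was 0.171 with the covariate and 0.0917 without it. Because the score separates the ZnSO4 from the water mice, the share of ZnSO4 and that of plasma cells cannot be told apart between the groups.

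Within groups the plasma cell score and the chaperones did not keep the same order. Water + PBS replicate 2 had the highest score of all mice, 7.37, and the lowest mean level of the 10 genes in its group. By summed plasma cell markers it stood at 130756 normalised counts, below water + Dex replicates 2 and 3 at 135769 and 131267. Its mean log2 CPM of B cell markers, 6.03, was also the highest of all mice. In ZnSO4 + PBS mice replicate 3 was lowest in both the plasma cell score and the 10 genes. Paneth cell markers kept the order of the 10 genes within both water groups and not within the ZnSO4 groups. In water mice their summed normalised counts were 241429, 185540 and 269629 in the water + PBS group and 250765, 179135 and 334521 in the water + Dex group, lowest in replicate 2 and highest in replicate 3. In ZnSO4 + Dex mice replicate 2 had the highest Paneth score, a mean log2 CPM of 10.69, and the lowest mean level of the 10 genes, and in ZnSO4 + PBS mice the Paneth score was lowest in replicate 2 and the 10 genes in replicate 3. Between ZnSO4 and water mice the summed Paneth cell markers overlapped, at 145750 to 333361 and 179135 to 334521. Of the 8 markers only 1, the protease Mmp7, fell in the mean ZnSO4 effect (-0.57, adjusted p = 0.037), beside 6.52% of all tested genes. With the Paneth score as a covariate 5 genes of the set fell in PBS mice, 5 in Dex mice and 8 in the mean ZnSO4 effect. Over all 15938 tested genes 343, 452 and 1081 fell in these fits. The part of the Paneth score in the differences from mouse to mouse was not tested.

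**Figure D5:**
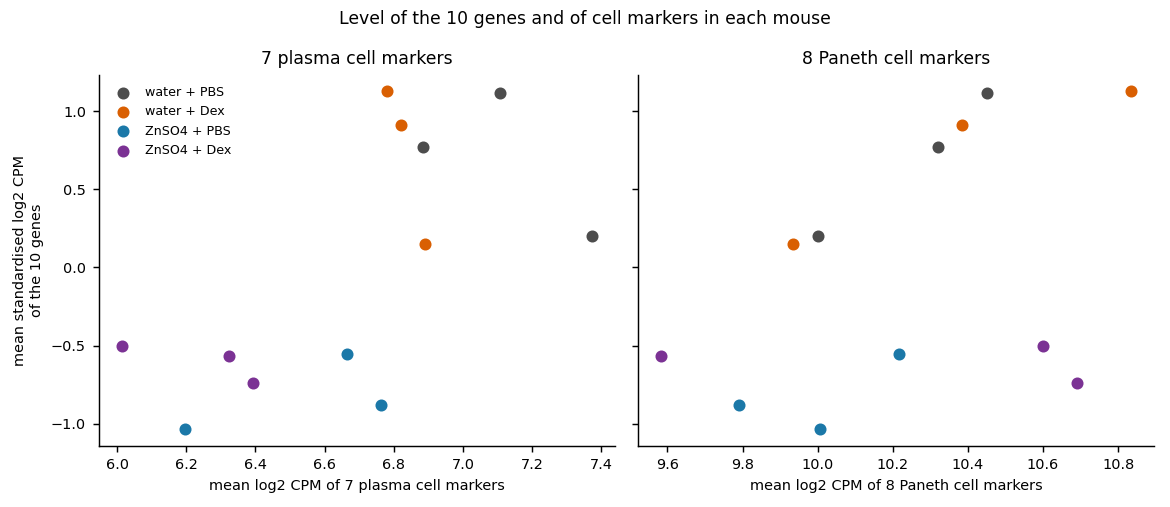
Mean standardised log2 CPM of the 10 genes in each of the 12 mice against the mean log2 CPM of 7 plasma cell markers (left) and of 8 Paneth cell markers (right), with colours for the 4 groups. ZnSO4 mice lie below -0.5 and water mice above 0.15 on the vertical axis. Of the marker scores shown, only that of plasma cells also separates them, at 6.76 against 6.78.

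Other secretory and immune cells moved in different directions. Of 7 goblet cell markers 3 rose with ZnSO4 in the mean effect and none fell, beside 6.24% and 6.52% of all tested genes. Those that rose were the mucin Muc2 (0.85, adjusted p = 0.0027), Zg16 (0.44, adjusted p = 0.022) and Tff3 (0.37, adjusted p = 0.011). Of 7 enteroendocrine markers 3 rose, beside the same 6.24%. Their summed normalised counts were 3178 to 3860 in water mice and 4019 to 5583 in ZnSO4 mice, which do not overlap. Of 8 T cell markers 5 fell, beside the same 6.52%, led by Cd8a (-1.27, adjusted p = 3.1e-04). Summed T cell markers were 881 to 1601 normalised counts in water mice and 425 to 943 in ZnSO4 mice. B cell markers varied within groups, from 229 to 7357 in water mice and from 159 to 5542 in ZnSO4 mice. With their score as a covariate 7 genes of the set fell in PBS mice, 4 in Dex mice and 8 in the mean ZnSO4 effect. Over all 15938 tested genes 417, 429 and 1022 fell in these fits.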

How the data were processed

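Total RNA of the ileum was sequenced from stranded single-end libraries of 12 mice. Per the labels and methods, the authors trimmed reads with Trimmomatic, mapped them to mm10 with HISAT2 2.0.4 and used featureCounts to count them, without reads that mapped to several places. These raw counts per gene are what was deposited. The annotation release and strand setting are not given in the sources used here. mm10 is GRCm38, and symbols, positions and exon lengths came from its GENCODE annotation. Of 237 genes in the lists used, 237 were found, 4 of them under another symbol, and a second Ddit3 identifier without counts was left out. Labels give an injection volume in ml that the methods give in μl.

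After a filter on low counts (filterByExpr, minimum count 10) and TMM scaling, all 12 libraries entered 1 quasi-likelihood fit of edgeR 4.0.16, with a mean for each of the 4 groups (R 4.3.3; limma 3.58.1; DESeq2 1.42.0 as an alternative). Comparisons were ZnSO4 with water in PBS and in Dex mice, Dex with PBS in water and in ZnSO4 mice, the mean of each pair and the interaction, with p-values adjusted over 15938 genes. Where nothing names separate cages, p-values measure the spread between these mice. Levels were compared between genes per kilobase of exon. The 10 genes and all lists were chosen with earlier results of these data known. Named genes were the 10, at most 3 called genes per list, comparison and direction, the sensors Ern1, Ern2, Eif2ak3 and Atf6, Atf4 and Ddit3, the 10 genes of most similar pattern, and check genes and markers where a result touches them. A result for 1 listed gene is not reported here.

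Alternatives were DESeq2, RLE or upper-quartile factors, 2 other count filters, a block for the replicate number, a fit of the compared groups alone, plasma or B cell markers as a covariate, the unadjusted p, and leaving out each library. A Paneth cell covariate was added after seeing the data. No pair of libraries within a group agreed within sampling noise (chi-square per degree of freedom of 7.63 or more). Counts of 15938 genes were also simulated, with known changes in a small part of them. For log2 changes of 0.7 in size, the procedure recovered 27 of 59 (45.8%) for ZnSO4 in PBS mice and 11 of 42 (26.2%) for ZnSO4 in Dex mice. The adjusted p depends on how many genes change, so these shares need not hold in the real counts.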

Additional observations from a re-analysis of the deposited data

How the results depend on the processing

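Of 670 LFCs of single genes under settings other than leaving out a library, 623 kept their direction and side of the threshold, 24 lost the call, 16 gained it and 7 turned sign; of 840 with a library left out, the numbers were 760, 35, 10 and 35. The 8 calls of the mean ZnSO4 effect were 8 in every fit without a library and 1 with the plasma cell covariate. For ZnSO4 in PBS mice the 6 calls became 0 with that covariate and ranged from 2 to 9 without a library. They became 9 with DESeq2, with only genes of at least 10 counts in every library or at an unadjusted p under 0.05. Over all tested genes, 542 fell with DESeq2, 429 of 13666 fell with that filter and 3161 had such a p in either direction. For ZnSO4 in Dex mice the 4 calls became 0 with the plasma cell covariate, 7 with DESeq2 and 8 at an unadjusted p under 0.05, and ranged from 1 to 5. Over all tested genes, 619 fell there with DESeq2 and 3048 had such a p in either direction. The 1 fall in the mean Dex effect became 0 with the plasma cell covariate, 2 with the Paneth cell covariate and 2 at an unadjusted p, and ranged from 1 to 2. Over all tested genes, 1116 and 1558 fell with these covariates and 5331 had such a p in either direction. At an unadjusted p, 1 gene fell with Dex in water mice, 1 fell with Dex in ZnSO4 mice and 1 rose in the interaction, where the adjusted counts were 0. Of all 15938 tested genes, 3623, 4196 and 794 had an unadjusted p under 0.05 in these comparisons, in either direction. The cause of these changes with the setting was not tested.

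The labels number the replicates and do not say whether a number pairs mice of different groups. Deviations from the group means correlated with a median of -0.056 for the same number (18 pairs of libraries, from -0.36 to 0.46). For different numbers the median was 0.023 (36 pairs, from -0.47 to 0.44). With ranges this wide the medians cannot decide whether mice of the same number were handled together. With the replicate block, 6 genes fell with ZnSO4 in PBS mice, 5 in Dex mice and 8 in the mean effect. Over all 15938 tested genes 313, 378 and 969 fell in these fits.

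Some LFCs that were not called turned sign. With the plasma cell covariate Hsp90b1 was at -0.034 for Dex in water mice and Hspa5 at -0.020 for Dex in ZnSO4 mice, and in the mean Dex effect Pdia6 was at -0.060 and Creld2 at -0.0077. Pdia6 in the mean Dex effect was at -0.012 with the B cell covariate. With the Paneth cell covariate Hspa5 was at -0.033 for Dex in ZnSO4 mice and Xbp1 at -0.0087 in the interaction. Without a library, ranges crossed 0 for Dnajb9 with ZnSO4 in PBS mice (-0.44 to 0.017); for Dex in water mice in Hspa5 (-0.20 to 0.097), Hsp90b1 (-0.033 to 0.13), Pdia6 (-0.13 to 0.064), Creld2 (-0.23 to 0.079) and Manf (-0.13 to 0.094); for Dex in ZnSO4 mice in Hspa5 (-0.062 to 0.15) and Dnajb9 (-0.079 to 0.33); for the mean Dex effect in Hspa5 (-0.085 to 0.065) and Creld2 (-0.012 to 0.14); and for the interaction in Hspa5 (-0.063 to 0.24), Sdf2l1 (-0.27 to 0.0072), Dnajb9 (-0.45 to 0.047), Pdia4 (-0.059 to 0.13), Manf (-0.23 to 0.011) and Xbp1 (-0.064 to 0.14). With 3 mice per group, changes as small as those of Pdia6 or Xbp1 within 1 injection are at the limit of what the test can call.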
